A study of Mus musculus with 9 samples.

Results

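The RGS genes (regulators of G-protein signalling) described here are Rgs1, Rgs2, Rgs3, Rgs9, Rgs10, Rgs14, Rgs16, Rgs18 and Rgs19, 9 of the 54532 genes in the expression table, found in it by their symbols. They were chosen by symbol with earlier results of these libraries known, so the levels and changes in the 3 comparisons are a description of them and carry no test. The table holds 21 genes with an Rgs number, of which 12 are outside this set. The RNA came from BV2, a mouse microglial cell line made immortal, and the 9 libraries fall into 3 groups of 3. Ctrl cells were kept in normal medium with 10% serum. OGD cells underwent oxygen-glucose deprivation, in low-glucose medium with 4% serum and a chamber at 4% oxygen. OGD + A-485 cells received the same deprivation together with A-485, which blocks the histone acetyltransferase P300, given at 50 μM in 24 h exposures in the experiments that precede the sequencing. The study does not restate that dose and time for the libraries, and they are taken to be the same here. No group received A-485 without OGD, all 3 groups come from 1 cell line, and lower glucose, lower oxygen and lower serum change together between Ctrl and OGD.

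RGS proteins bind active G alpha subunits and speed up the hydrolysis of their GTP, which shortens the signal that a G-protein coupled receptor sends. In microglia such receptors sense chemokines, complement fragments, nucleotides and lipids. The R4 family (here Rgs1, Rgs2, Rgs3, Rgs16 and Rgs18) consists mostly of small proteins built around the RGS domain. The R7 family (Rgs9 and its relative Rgs11) needs the atypical G beta subunit Gnb5 to be stable. The R12 family (Rgs10 and Rgs14) and the RZ family (Rgs19) act mainly on Gi-type subunits.

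The promoters of the 2 members called lower with A-485 added, Rgs9 and Rgs3, are shown first. That of Rgs2 is beside them, as 1 of the members whose mean level was highest with A-485. Rgs10, Rgs16 and Rgs19 also had their highest mean there, and their promoters are not printed. Each run is the 250 bases before an annotated RefSeq start (GRCm38.p6), 5′ to 3′ on the strand of the gene, and the capitals mark CG dinucleotides. The Rgs9 window is chr11:109298182-109298431 on the minus strand, the Rgs3 windows are chr4:62559597-62559846 and chr4:62619422-62619671 on the plus strand, and the Rgs2 window is chr1:144004150-144004399 on the minus strand.
Rgs9: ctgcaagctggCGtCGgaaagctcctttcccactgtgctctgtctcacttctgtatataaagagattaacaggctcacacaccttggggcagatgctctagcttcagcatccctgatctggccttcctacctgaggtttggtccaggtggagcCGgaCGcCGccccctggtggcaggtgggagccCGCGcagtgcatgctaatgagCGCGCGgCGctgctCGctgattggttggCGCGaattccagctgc
Rgs3, upstream start: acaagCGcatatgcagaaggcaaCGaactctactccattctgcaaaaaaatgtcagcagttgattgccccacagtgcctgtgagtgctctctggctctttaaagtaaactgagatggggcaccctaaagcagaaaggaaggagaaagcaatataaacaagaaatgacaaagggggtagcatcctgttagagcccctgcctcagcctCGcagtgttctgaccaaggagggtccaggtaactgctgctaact
Rgs3, downstream start: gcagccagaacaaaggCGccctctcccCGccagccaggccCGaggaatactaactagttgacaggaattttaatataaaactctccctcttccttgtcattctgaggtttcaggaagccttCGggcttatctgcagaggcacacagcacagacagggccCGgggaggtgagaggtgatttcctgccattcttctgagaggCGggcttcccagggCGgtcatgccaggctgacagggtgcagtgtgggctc
Rgs2: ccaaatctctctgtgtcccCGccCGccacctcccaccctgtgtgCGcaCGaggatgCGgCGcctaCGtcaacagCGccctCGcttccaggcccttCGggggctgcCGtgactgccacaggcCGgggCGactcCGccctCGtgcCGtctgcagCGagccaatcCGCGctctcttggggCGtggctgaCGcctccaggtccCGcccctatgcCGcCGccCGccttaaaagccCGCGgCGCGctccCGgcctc
The Rgs2 window held 30 CG dinucleotides at 72.4% G and C, and the Rgs9 window held 14 at 59.6%. The Rgs3 windows held 3 at 48.4% and 7 at 56.8%. The median over all 32851 promoters of the reference was 6 CG dinucleotides and 52.4% G and C. The upstream start of Rgs3 lay below both medians, and its downstream start, Rgs2 and Rgs9 lay above both. The windows not printed held 27 CG dinucleotides for Rgs10, 17 for Rgs16, and 4, 34 and 20 for the starts of Rgs19. RefSeq gave 9 promoters for 6 of the members (Rgs2, Rgs3, Rgs9, Rgs10, Rgs16 and Rgs19). On either strand of these 9 windows there was no match to ACGTG (the core of a hypoxia response element), TGANTCA (AP-1), TGACGTCA (a cAMP response element, which does not contain ACGTG) or the NF-kB motif. Among all promoters the shares with a match were 16.6%, 6.75%, 1.55% and 5.0%.

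Each library held between 12593250 and 16091038 reads on genes, so that 1 read on a gene of 1 kb was worth 0.0618 to 0.0786 FPKM (fragments per kilobase of gene, scaled to library size), and mitochondrial genes took 1.14% to 2.20%. Of 9 microglial and macrophage markers, 8 had a Ctrl mean of at least 1 FPKM, and the exception was Aif1. Their summed level ranged from 564 to 584 FPKM in Ctrl, from 663 to 693 in OGD and from 1274 to 1309 in OGD + A-485. The summed markers of neurons and astrocytes stayed at or below 0.0337 and 0.150 FPKM in all 9 libraries, with Aqp4 at 0. Endothelial and pericyte markers summed to 0.307 to 0.975 FPKM with Cldn5 and Kcnj8 at 0, and oligodendrocyte markers to 1.02 to 2.36 with Mog at 0. In such bulk libraries fewer cells of a state and less RNA per cell cannot be told apart. The labels do not say whether the libraries of a group came from separate cultures, so the p-values below measure the spread between these libraries, which may be technical.

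Of the 9 members, 7 passed the filter of a mean of at least 0.2 FPKM, and Rgs16 and Rgs18 did not. A gene was called at an unadjusted limma p-value under 0.01 with an absolute log2 fold change above 0.5, the thresholds of the study, on log2(FPKM + 0.1), a scale that understates changes of low genes. In OGD against Ctrl, Rgs1 and Rgs9 were called higher and none of the 7 lower, where the shares over all 16123 genes tested were 11.2% higher and 9.81% lower. In OGD + A-485 against OGD, Rgs3 and Rgs9 were called lower and none higher, where 13.4% of all genes were called lower and 12.2% higher. In OGD + A-485 against Ctrl, Rgs1, Rgs2, Rgs10 and Rgs14 were called higher and Rgs3 lower, where 17.0% of all genes were called higher and 16.6% lower. The median log2 fold change of the 7 members was 0.40, 0.20 and 0.56 in these comparisons, and that of all genes 0.01, 0.01 and 0.02. The comparisons share libraries, the first and second those of OGD, so their calls are not independent of each other.

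**Figure D1:**
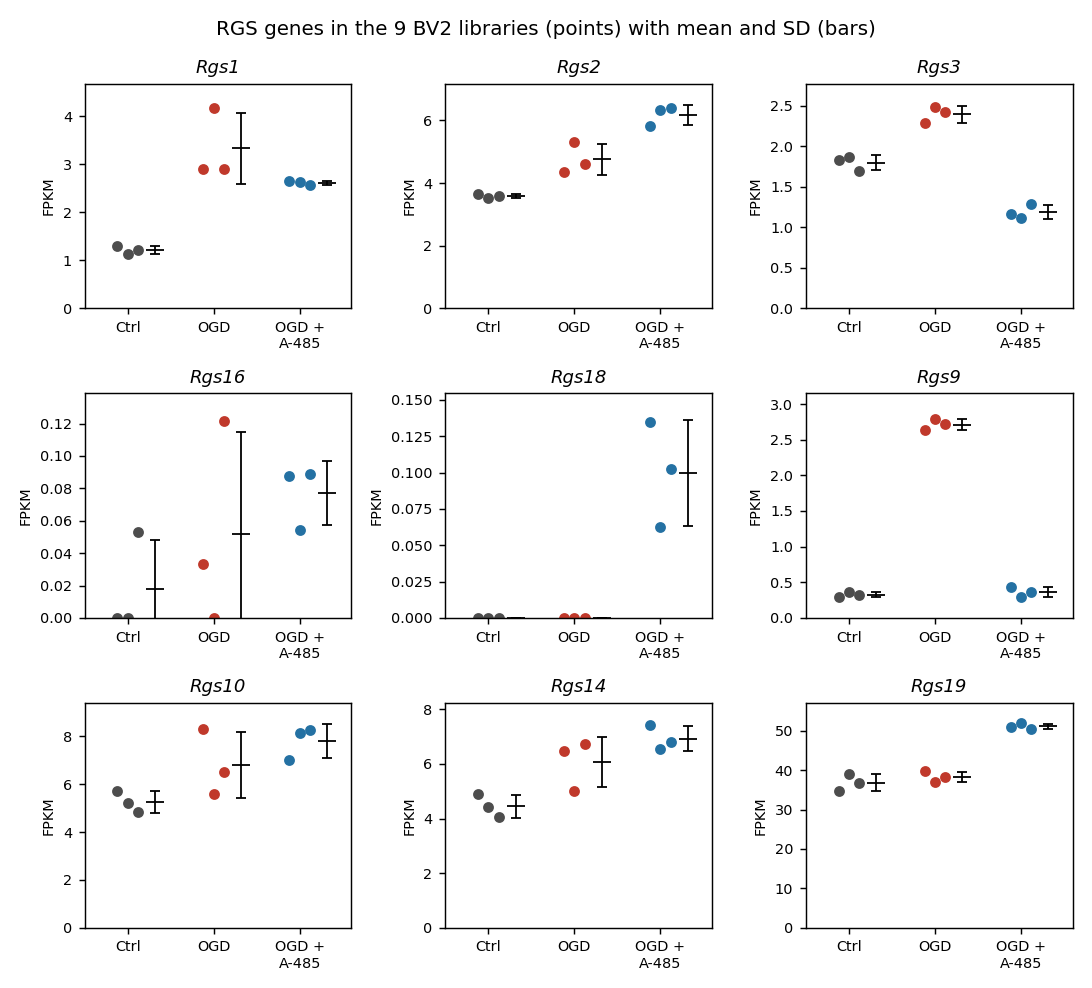
Level of each RGS gene in FPKM (vertical axis, from 0, a scale of its own per panel) in the 3 Ctrl, 3 OGD and 3 OGD + A-485 libraries (points), with the mean and SD of each group (bars, cut at 0 where they would pass below it). Rgs9 stands at 2.63 to 2.79 FPKM in OGD and below 0.44 in the other libraries, while Rgs18 is at 0 outside OGD + A-485.

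Rgs9 showed the largest changes among the 7 members above the filter. This R7 protein is known from striatal neurons and photoreceptors, where it ends dopamine and light responses. Its level was 0.293, 0.362 and 0.329 FPKM in the Ctrl libraries, 2.63, 2.79 and 2.71 in OGD, and 0.439, 0.297 and 0.358 in OGD + A-485. All 3 OGD libraries lay above the other 6, and the Ctrl and OGD + A-485 libraries overlapped. The reads behind these values were 25 to 34, 214 to 244 and 30 to 41 per library. The mean was 0.328 ± 0.0348 FPKM (SD, n = 3) in Ctrl, 2.71 ± 0.0790 in OGD and 0.365 ± 0.0712 in OGD + A-485. The OGD mean was 8.27 times the Ctrl mean, and the OGD + A-485 mean was 0.135 times the OGD mean. On the log2 scale the change was 2.72 (SE 0.18) with OGD, -2.61 (SE 0.18) with A-485 added, and 0.11 (SE 0.18) between OGD + A-485 and Ctrl. Rgs9 (ENSMUSG00000020599) lies on chr11:109225355-109298129, minus strand, of GRCm38, and no annotated gene overlaps it there.

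Rgs11, the other R7 gene with a level above the filter and the single tested RGS gene outside the set, followed a different course. Its libraries read 6.51, 6.44 and 7.17 FPKM in Ctrl, 11.7, 12.9 and 14.1 in OGD, and 16.2, 14.3 and 14.2 in OGD + A-485. Each group lay wholly above the one before it. Rgs11 was called higher in OGD against Ctrl, with a log2 fold change of 0.93 (SE 0.08, limma adjusted p = 2.99e-05), and was not called between OGD + A-485 and OGD (0.21, SE 0.08, adjusted p = 0.064). Rgs11 shares 138 exon bases, 3.28% of its own, with Arhgdig on the opposite strand, a gene that was not called in these comparisons. Rgs6 and Rgs7 had 0 reads in all 9 libraries.

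Gnb5, the obligate partner of R7 proteins, read 6.15, 6.29 and 5.99 FPKM in Ctrl, 8.20, 8.01 and 8.56 in OGD, and 5.65, 4.61 and 5.34 in OGD + A-485. All 3 OGD libraries were the highest and all 3 OGD + A-485 libraries the lowest. Gnb5 was called lower with A-485 added (log2 fold change -0.66, SE 0.08, limma adjusted p = 0.000103). Its change with OGD, 0.42 (SE 0.08, adjusted p = 0.00181), was under the fold threshold. The membrane anchor Rgs9bp averaged 0.132 FPKM in Ctrl, 0.113 in OGD and 0.0311 in OGD + A-485, below the filter, as did the other anchors and receptors of the R7 partner list, so that 1 of its 5 genes was tested.

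Rgs9 stands in a stretch of chromosome 11 whose coding genes, described here after their values had been seen, include a G alpha subunit. Gna13, a subunit of the G12 class, starts 64.702 kb upstream of the start of Rgs9. Its libraries read 30.1, 30.3 and 29.1 FPKM in Ctrl, 46.8, 54.6 and 49.4 in OGD, and 28.1, 28.3 and 27.9 in OGD + A-485. The 3 OGD libraries lay above all others. The log2 fold change was 0.75 (SE 0.05, limma adjusted p = 9.33e-06) with OGD and -0.83 (SE 0.05, adjusted p = 3.3e-06) with A-485 added. Farther upstream, Amz2 (127.817 kb away) changed by 1.56 and -1.11 in these comparisons, 9930022D16Rik by 1.93 and -1.08, and Wipi1, which acts in autophagy, by 1.16 and -0.77, and each of the 6 changes was called. Amz2 shares 18.8% of its exon bases with Slc16a6 on the opposite strand, whose changes were 0.00 and 0.38, neither called. Gna13 shares 2.35% with the antisense gene Gm11696. In all, 11 coding genes that averaged at least 1 FPKM lay within 1000 kb of the start of Rgs9. Of these, 5 were called higher and 1 lower in OGD against Ctrl, and 2 were called higher and 4 lower in OGD + A-485 against OGD. The 1 called lower with OGD was Abca9 (-0.69), 870.067 kb upstream. Abca9 (1.05) and Arsg (0.56), the latter 175.245 kb upstream, were the 2 called higher with A-485 added. Over the 50 expressed genes nearest to Rgs9 the median changed by 0.07 and 0.08 in these comparisons. Among the 11, 9930022D16Rik averaged 0.667 FPKM in Ctrl, 2.80 in OGD and 1.28 in OGD + A-485. It reached the average of 1 FPKM only through OGD, so that limit favoured the direction of its changes. Over all genes tested the shares were 11.2% higher and 9.81% lower, and 12.2% higher and 13.4% lower, and nothing is read from the difference because the stretch was picked after its values had been seen. The nearest one downstream, the kinase gene Prkca, lay 954.201 kb away and changed by -0.41 in both comparisons, under the fold threshold.

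**Figure D2:**
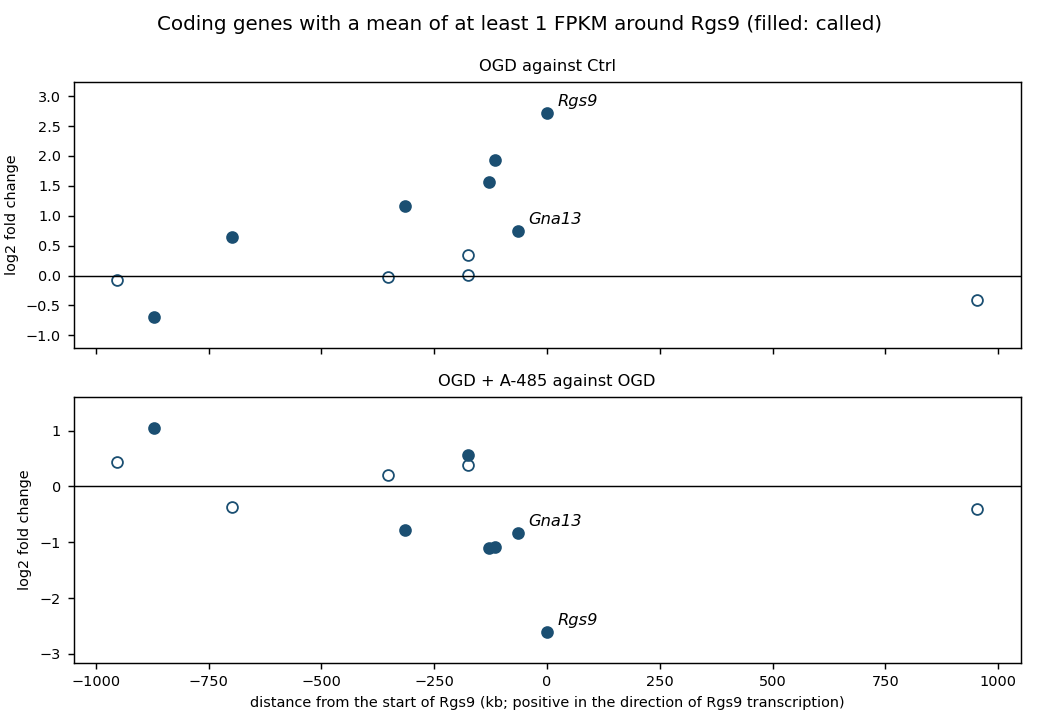
The log2 fold change (vertical axis, on FPKM + 0.1) of coding genes averaging 1 FPKM or more against their distance in kb from the start of Rgs9 (horizontal axis), for OGD against Ctrl (upper panel) and OGD + A-485 against OGD (lower panel), filled where the gene was called. Rgs9 is at 2.72 and -2.61, and Gna13 beside it at 0.75 and -0.83.

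Rgs3 was the other member called lower with A-485 added. It has several isoforms and acts on Gi and Gq subunits. Its level was 1.84, 1.87 and 1.69 FPKM in Ctrl, 2.28, 2.48 and 2.43 in OGD, and 1.17, 1.11 and 1.28 in OGD + A-485. No 2 groups overlapped, OGD being highest and OGD + A-485 lowest. With 184 to 369 reads per library, the log2 fold change was 0.40 (SE 0.10) with OGD, under the fold threshold, and -0.96 (SE 0.10) with A-485 added, where the mean came to 0.495 times that of OGD. Against Ctrl the OGD + A-485 mean was 0.660 times as high, a log2 fold change of -0.56 (SE 0.10). Rgs3 (ENSMUSG00000059810) spans chr4:62559847-62704001 on the plus strand and has 17 annotated transcripts, 8 of them coding. The deposited value pools all of them over a length of 10801 bases, so isoforms that start from either promoter above cannot be told apart.

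Rgs1, an R4 protein known for damping chemokine responses of leukocytes, was the other member called higher with OGD. It read 1.29, 1.12 and 1.21 FPKM in Ctrl, 2.89, 4.18 and 2.91 in OGD, and 2.65, 2.62 and 2.56 in OGD + A-485. The OGD libraries lay above all others, and replicate 2 of OGD stood well above its 2 partners. The mean was 1.21 ± 0.0858 FPKM (SD, n = 3) in Ctrl, 3.33 ± 0.738 in OGD, 2.75 times as high, and 2.61 ± 0.0487 with A-485 added. The log2 fold change was 1.37 (SE 0.14) with OGD, -0.32 (SE 0.14) with A-485 added, and 1.05 (SE 0.14) for OGD + A-485 against Ctrl. Leaving out 1 library in turn moved the OGD change between 1.20 and 1.46, and the change with A-485 added between -0.40 and -0.15. The OGD + A-485 libraries of Rgs1 lay above Ctrl, while those of Rgs9 overlapped Ctrl.

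Rgs2, an R4 protein that prefers Gq subunits, was higher in OGD and higher again with A-485. The Ctrl libraries read 3.65, 3.52 and 3.58 FPKM, the OGD libraries 4.35, 5.32 and 4.61, and the OGD + A-485 libraries 5.81, 6.34 and 6.39. No groups overlapped. Neither step passed the fold threshold (log2 fold changes of 0.39 and 0.37, SE 0.08), and their sum did, at 0.77 (SE 0.08) for OGD + A-485 against Ctrl.

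**Figure D3:**
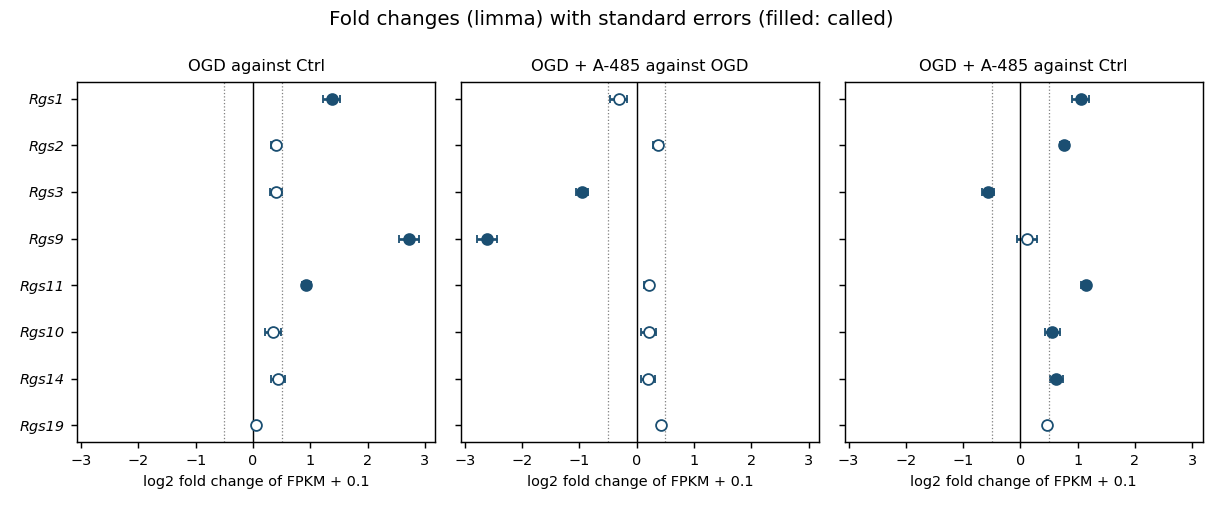
The log2 fold change of FPKM + 0.1 (horizontal axis) with its SE from limma (bars) for the 7 members above the filter and Rgs11, in 3 comparisons; filled points were called, and dotted lines mark changes of 0.5 in either direction. Rgs9 is at 2.72 with OGD and -2.61 with A-485 added, Rgs3 at -0.96 with A-485, and Rgs1 at 1.37 and Rgs11 at 0.93 with OGD.

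Rgs16 and Rgs18, the remaining R4 members, lay at the edge of detection. Rgs16, which is induced in many activated immune cells, had 0, 0 and 2 reads in the Ctrl libraries, 1, 0 and 4 in OGD and 3, 2 and 3 in OGD + A-485. With counts this low no fold is given. Rgs18, known from platelets and myeloid cells, had 0 reads in all Ctrl and OGD libraries and 4, 2 and 3 reads with A-485, or 0.135, 0.0623 and 0.102 FPKM. Set against a floor of 3 reads over the group, its level with A-485 was 2.66 times that floor in OGD and 2.93 times that in Ctrl. These ratios are not lower bounds, since the counting error of the 9 reads with A-485 was not included. The summed macrophage markers were also highest in the OGD + A-485 libraries (1274 to 1309 FPKM), and their part in the values of Rgs18 and the other members that were highest there was not tested.

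Rgs10 and Rgs14, the R12 members, ran close together. Rgs10, known in microglia for restraining inflammatory signalling, read 5.73, 5.21 and 4.84 FPKM in Ctrl, 8.31, 5.61 and 6.52 in OGD, and 7.0, 8.14 and 8.27 in OGD + A-485. Its OGD libraries spread widely (6.82 ± 1.37, SD, n = 3) and overlapped both other groups. The OGD + A-485 libraries lay above Ctrl by a log2 fold change of 0.56 (SE 0.14), a call that was lost without any 1 of 4 libraries (0.55 without Ctrl replicate 2, 0.50 without Ctrl replicate 3, 0.53 and 0.52 without OGD + A-485 replicates 2 and 3). Rgs14, a scaffold that also binds inactive Gi subunits through a GoLoco motif, read 4.89, 4.42 and 4.05 FPKM in Ctrl, 6.47, 5.02 and 6.74 in OGD, and 7.44, 6.56 and 6.79 in OGD + A-485. Both treated groups lay above Ctrl and overlapped each other. The Rgs14 change with OGD, 0.43 (SE 0.12), was not called, but passed the thresholds without Ctrl replicate 1 (0.50) or OGD replicate 2 (0.56), and the change between OGD + A-485 and Ctrl was called at 0.63 (SE 0.12).

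Rgs19, the RZ member also named GAIP and a regulator of Gi subunits, was by far the most abundant. Its level was 34.8, 39.0 and 36.7 FPKM in Ctrl, 39.7, 37.1 and 38.1 in OGD, and 50.9, 51.9 and 50.5 in OGD + A-485. Ctrl and OGD overlapped, and every OGD + A-485 library lay above the other 6. The log2 fold change was 0.06 (SE 0.05) with OGD, 0.42 (SE 0.05) with A-485 added and 0.47 (SE 0.05) against Ctrl, all under the fold threshold. It had 1036 to 1827 reads per library and the smallest SE of the 7 members above the filter. The change against Ctrl passed the threshold without Ctrl replicate 2 (0.51).

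Per length, the order of the Ctrl means was Rgs19, Rgs10, Rgs14, Rgs2, Rgs3, Rgs1, Rgs9, Rgs16 and Rgs18. Rgs10 and Rgs14 overlapped in all 3 groups, as did Rgs16 and Rgs18, and Rgs14 and Rgs2 overlapped in OGD. In OGD, Rgs1 and Rgs9 stood above Rgs3, and with A-485 Rgs3 stood again above Rgs9. The order rests on gene length, since the deposited length of Rgs1, 6947 bases, equals its whole span. With the length of the longest coding transcript instead, an alternative chosen after seeing the data, the OGD order became Rgs19, Rgs10, Rgs14, Rgs1, Rgs2, Rgs3 and Rgs9, and the orders in Ctrl and OGD + A-485 did not change. The rescaled OGD means of Rgs1, Rgs2 and Rgs3 were 6.02 ± 1.34, 5.71 ± 0.599 and 5.51 ± 0.236 (SD), so their order there is not resolved. Nor is that of Rgs2 (4.30 ± 0.0793) and Rgs3 (4.14 ± 0.218) in Ctrl on this length. The summed level of the 9 members was 53.5 ± 1.73 FPKM (SD, n = 3) in Ctrl, 64.4 ± 2.12 in OGD and 76.3 ± 0.702 in OGD + A-485. Rgs19 made up 68.8%, 59.4% and 66.9% of it, and Rgs9 0.613%, 4.21% and 0.479%.

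RGS genes that neighbour each other differed in level. Rgs2, Rgs13, Rgs1, Rgs21 and Rgs18 follow one another on chromosome 1, with gaps of 134.493, 64.924, 267.406 and 185.016 kb and no other coding gene between them. Rgs2 and Rgs1 were expressed, Rgs21 had 0 reads, and Rgs13 had 3 reads in Ctrl, 1 in OGD and 0 in OGD + A-485. Rgs8 and Rgs16 are separated by 40.026 kb and Rgs5 and Rgs4 by 45.664 kb, and all 4 were near 0. Of the 12 Rgs-numbered genes outside the set, Rgs4, Rgs6, Rgs7, Rgs17, Rgs21 and Rgs22 had 0 reads in every library.

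By Pearson's r of log2(FPKM + 0.1) over the 9 libraries, the coding genes most like each member were as follows. They are a description, since with 3 groups the group means set most of r. Rgs9 was followed most closely by Ampd3 (r = 0.998) and the glycolytic enzyme gene Pfkp (0.997), and Rgs3 by Mettl27 (0.996) and the phosphatase gene Dusp14 (0.995). Rgs1 was closest to Mctp1 (0.990) and Map4k3 (0.989), and Rgs2 to Gatd1 and Zfp654 (both 0.994). Rgs19 was closest to Rftn1 (0.992) and D17H6S53E (0.990), Rgs14 to Zdhhc12 (0.989) and Gse1 (0.968), and Rgs10 to Tmem256 (0.970) and Slc37a3 (0.957). For Rgs18 the genes were Ap2m1 and Trim25 (both 0.987) and for Rgs16 Fgd3 (0.924) and Smug1 (0.922), on few reads.

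The genes that RGS proteins work with were described by lists of G-protein subunits, regulators, receptors and effectors. Over all lists 66 of 114 genes in the table passed the filter. In OGD against Ctrl 11 of them were called higher and 4 lower, in OGD + A-485 against OGD 18 higher and 12 lower, and in OGD + A-485 against Ctrl 30 higher and 8 lower. The medians of their log2 fold changes were 0.12, 0.24 and 0.42, against 0.01, 0.01 and 0.02 for all genes. The shares of all genes tested, given above, were 11.2% higher and 9.81% lower, 12.2% and 13.4%, and 17.0% and 16.6%. Of the 66, Fpr1, S1pr1, Arhgef12 and Gng10 passed the filter only through the OGD + A-485 group, where they were highest, so their direction with A-485 was fixed by the filter. With A-485 added, 14 of the 30 calls were receptors.

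Among 10 tested G alpha subunits, the direct substrates of RGS proteins, Gna13 was called higher with OGD, and with A-485 added Gnaq was called higher and Gna13 lower. Gnaq, the Gq subunit that Rgs2 prefers, averaged 11.001 FPKM in Ctrl, 10.99 in OGD and 20.6 in OGD + A-485. Its log2 fold change with A-485 was 0.90 (SE 0.05, limma adjusted p = 1.23e-06). Among 10 tested G beta and gamma subunits, 1 was called higher and 2 lower with OGD, and 3 higher and 1 lower with A-485 added. Gngt2 was called higher in both (0.85 and 0.84) and Gng8 lower in both (-0.90 and -1.17), while Gng12 (0.64) and Gng2 (0.62) were called higher with A-485, and their OGD changes of -0.38 and 0.13 were under the fold threshold. Of 6 tested GoLoco proteins and chaperones, which hold or fold inactive G alpha, none was called with OGD, and with A-485 Gpsm1 was called lower (-0.84, limma adjusted p = 0.000121) and Gpsm3 higher (0.51, adjusted p = 0.00405).

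Of 8 tested genes in a list of other proteins with an RGS homology domain, which leaves out the receptor kinases, 2 were called higher with OGD. With A-485 added 2 were called higher and 1 lower. The sorting nexin Snx14 averaged 11.7, 21.2 and 11.3 FPKM over Ctrl, OGD and OGD + A-485 (log2 fold changes of 0.85 and -0.90, SE 0.05, limma adjusted p = 2.3e-06 and 8.53e-07). Arhgef11 averaged 6.17, 9.55 and 14.5 FPKM (0.63 and 0.59). Its relative Arhgef12, outside the naming rule and chosen after its values were seen, averaged 0.0311 FPKM in Ctrl, 0.0222 in OGD and 2.55 in OGD + A-485. It is 1 of the 2 called higher with A-485 and passed the filter only through that group. Gna13 was thus called lower with A-485 added and Arhgef11 higher.

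Of 6 tested receptor kinases and arrestins, which switch off receptors, Arrb1 was called higher with OGD (9.42 to 21.2 FPKM, log2 fold change 1.16, limma adjusted p = 2.16e-06). With A-485 added, Grk5 (-0.72) and Grk6 (-0.71) were called lower and none higher. Grk6 is also the nearest expressed coding gene downstream of Rgs14, at 75.34 kb, and its OGD change was -0.32. Among 9 tested effectors, the phospholipase Plcb2 was called higher with OGD (0.64, limma adjusted p = 1.94e-05) and 1 effector lower. With A-485 the cyclase Adcy9 was called higher (0.79, adjusted p = 0.000804) and 1 effector lower. The 2 lower effectors fell outside the naming rule and were picked after their values were seen. Adcy3 averaged 0.833 FPKM in Ctrl and 0.338 in OGD. Pde4c averaged 1.54 FPKM in OGD and 0.145 in OGD + A-485.

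Of 15 tested microglial and chemoattractant receptors, 4 were called higher and 1 lower with OGD, and 10 higher and 4 lower with A-485 added, with median log2 fold changes of 0.00 and 0.78. Of the 10, Fpr1 and S1pr1 had passed the filter only through the OGD + A-485 group. The fractalkine receptor Cx3cr1 averaged 5.92, 15.7 and 27.8 FPKM over Ctrl, OGD and OGD + A-485 (log2 fold changes of 1.39 and 0.82). The chemokine receptor Ccr1 averaged 1.89, 6.63 and 3.53 FPKM (1.76 and -0.89, limma adjusted p = 2.3e-06 and 5.98e-05). The complement receptor C3ar1 moved from 25.8 FPKM in OGD to 70.1 with A-485 (1.44), and the fatty acid receptor Gpr84 from 2.17 to 18.1 (3.01, limma adjusted p = 1.5e-06).

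**Figure D4:**
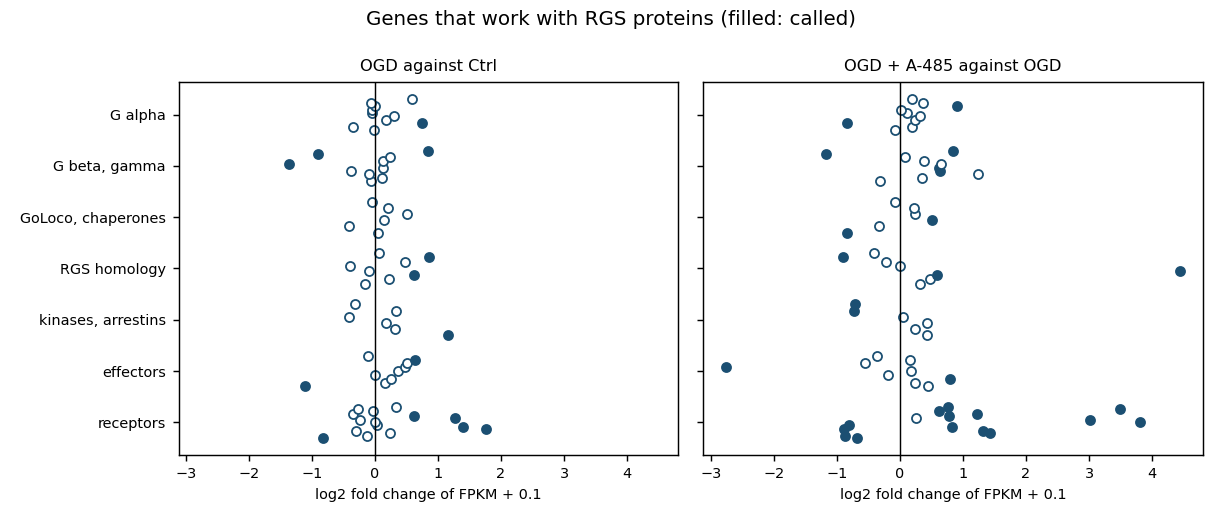
The log2 fold change of FPKM + 0.1 (horizontal axis) of each tested gene of 7 lists (rows, with points spread vertically for legibility), for OGD against Ctrl (left) and OGD + A-485 against OGD (right), filled where called. With A-485 added 10 receptors were called higher and 4 lower, Gpr84 among them at 3.01, and the far right point among RGS homology proteins is Arhgef12.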

How the data were processed

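The authors sequenced RNA of BV2 cells after a SMARTER mRNA-seq library preparation, counted reads per gene with featureCounts v1.5.0-p3 and deposited FPKM for 54532 genes. The build is GRCm38 (mm10) in the submitters' processing notes. The aligner, the annotation release and the strand setting of counting are not given in the sources used here, so reads of overlapping genes cannot be told apart by strand. The FPKM gave back whole reads for 100% of values above 0 (within 0.05 of a whole number) once multiplied by gene length and a divisor per library, which is close to, but not equal to, the library total. The divisor was above the reads on genes in every Ctrl and OGD library and below them in every OGD + A-485 library. Scaling to library totals therefore lowers OGD + A-485 relative to the other groups, as for Rgs10 against Ctrl (0.56 to 0.45). Of the 54495 identifiers found in GENCODE M21, 98.3% had the same coordinates.

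Groups came from the sample labels. All 9 libraries entered 1 limma fit (version 3.58.1, R 4.3.3) of log2(FPKM + 0.1), with 1 mean for each group and eBayes with a trend, over the 16123 genes that averaged 0.2 FPKM or more. Calls needed an absolute log2 fold change above 0.5 and an unadjusted p-value under 0.01, and p-values were adjusted by Benjamini-Hochberg over all genes tested. The script was tested on simulated data. Python 3.11.15 with pandas 2.3.3, numpy 2.4.6 and matplotlib 3.10.9 did the rest. The members and lists were chosen with earlier results of these data known, and no p-value is given for the members. Named beside them are the tested RGS genes outside the set, up to 4 genes of each list with the largest changes among those called in either of the first 2 comparisons with a mean of at least 1 FPKM, and the 2 coding genes most correlated with each member. Genes near Rgs9, Arhgef12, Adcy3, Pde4c and the marking of CG dinucleotides were chosen after the values were seen. The alternatives were 2 other pseudocounts (1 and 0.01), a minimum mean of 1 FPKM or no filter, quantile and library-total scaling, the median of 50 neighbouring genes removed, the replicate number as a block, eBayes without a trend, limma-voom on the recovered reads, a fit of just the groups in question, an adjusted p-value under 0.05 in place of the call rule, and each library left out in turn.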

Additional observations from a re-analysis of the deposited data

How the results depend on the processing

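The calls of Rgs1 and Rgs9 in OGD against Ctrl, and of Rgs3 and Rgs9 in OGD + A-485 against OGD, held under all 21 alternatives. Rgs9 averaged 0.328 FPKM in Ctrl, 2.71 in OGD and 0.365 in OGD + A-485, so it met the minimum mean of 1 FPKM only through OGD. That alternative therefore favoured the direction of its changes and adds nothing for Rgs9. The Rgs9 change ran from 1.48 (pseudocount 1) to 3.03 (pseudocount 0.01) with OGD, and from -2.90 to -1.44 with A-485 added. Of 441 member values, 412 moved by less than the spread between replicates, 9 moved by more away from 0 and 20 by more towards or past it. Many could not move, since a change of filter, call rule, trend, block or groups fitted leaves the group means as they were. The same holds where the library left out belongs to neither group compared. The sign turned 3 times, each time for Rgs9 in OGD + A-485 against Ctrl, which was not called. At an adjusted p-value under 0.05 with no fold threshold, 5 members were higher in OGD against Ctrl and 2 (Rgs2 and Rgs19) in OGD + A-485 against OGD. The list genes then came to 22 higher and 11 lower with OGD, 33 higher and 18 lower with A-485 added, and 38 higher and 16 lower in OGD + A-485 against Ctrl. All genes came to 3624 higher and 3676 lower with OGD, 4053 and 3983 with A-485 added, and 4553 and 4577 in OGD + A-485 against Ctrl. Without a filter, Rgs18 was 1 member called higher with A-485 added, on 9 reads in all against 0 in OGD. The size of that change is set by the pseudocount, and nothing is read from the call. With a pseudocount of 1, 0 members were lower in OGD + A-485 against Ctrl (Rgs3 at -0.36) and the call of Rgs10 there was lost (0.49), as it was on library totals (0.45). With the median of 50 neighbouring genes removed, Rgs3 was called higher with OGD (0.53). List genes lower with OGD numbered 4, and 2 with a pseudocount of 1 or a minimum mean of 1 FPKM, and ran from 2 (without Ctrl replicate 2 or 3) to 4 with 1 library left out. On recovered reads limma-voom called 1923 genes higher and 1681 lower with OGD, and 2071 and 2262 with A-485 added.

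The labels number the replicates, and same-numbered libraries of different groups did not deviate together (mean correlation of -0.002 over 9 pairs, against 0.001 over 18 pairs of different numbers). Deviations within a group sum to 0, so these means are tied and the second is no independent reference. Whether same-numbered libraries were prepared together cannot be told from them. With the replicate number as a block, 2 members were called higher with OGD, 2 lower with A-485 added, and 4 higher and 1 lower in OGD + A-485 against Ctrl, and 1740 genes in all were called higher and 1548 lower with OGD. Depth limited Rgs16 and Rgs18, with at most 4 reads in a library.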
